A study of Mus musculus with 24 samples.

Results

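The tumour necrosis factor (TNF) superfamily, counted here as its ligands and the receptors that bind them, was followed through 24 RNA sequencing libraries of macrophages grown from mouse bone marrow. Members were the protein-coding genes on a numbered chromosome or X whose symbol begins with Tnfsf or Tnfrsf, together with Tnf, Lta, Ltb, Ltbr, Cd40, Cd40lg, Fas, Fasl, Cd27, Cd70 and Ngfr. This gave 43 of 47372 genes, 18 ligands and 25 receptors. Reads were found for all 43, and 30 were detected, that is, reached 10 normalized counts in at least 3 of the 24 libraries.

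The libraries came from 6 mice of strain C57BL/6J, aged 8 to 12 weeks. Of these, 3 were double knockouts of LXRα and LXRβ (labelled DKO, LXR negative) and 3 were C57BL/6J mice without the knockout, labelled LXR-positive. LXRs are nuclear receptors that sense oxidized cholesterol. Cells of every mouse were treated on day 5 of culture with KLA at 100 ng/ml (Kdo2-lipid A, the TLR4-activating part of lipopolysaccharide), with GW3965 at 1 µM (a synthetic LXR agonist), or with vehicle, each for 17 hours, while another portion received acetylated LDL (AcLDL) at 50 µg/ml, a lipoprotein that loads macrophages with cholesterol. The sources used here do not say how long AcLDL was left on the cells. Each of the 8 groups thus had 3 libraries, 1 per mouse. All cells had grown in medium conditioned by L929 cells, and the vehicle is not named in the labels.

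Ligands of this superfamily are mostly membrane-anchored trimers, some of which are cut from the cell surface. Many of their receptors carry a death domain that can start apoptosis, lead to TRAF adaptors that switch on NF-κB and MAP kinases, or do both. Some receptors are decoys. TNF is the best known macrophage product of the family, released within hours of TLR4 activation. Through BAFF, APRIL, CD40 and 4-1BB ligand, macrophages also exchange signals with B and T cells.

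DKO libraries held 9705391 to 27189081 reads and LXR-positive libraries 6448579 to 17348717, so that 1 read was worth 0.451 to 1.27 normalized counts in DKO and 0.778 to 2.03 in LXR-positive libraries. All 11 macrophage markers examined, Csf1r and Adgre1 among them, had a median above 100 normalized counts. So did 6 of 12 neutrophil, 4 of 9 osteoclast, 3 of 10 stromal, 2 of 9 dendritic cell, 1 of 13 T and NK cell and 1 of 10 erythroid and megakaryocyte markers, and 0 of 8 B cell and 0 of 9 mast cell, basophil and eosinophil markers. Nr1h2, the LXRβ gene, stood at 275 to 399 normalized counts in DKO libraries and 438 to 821 in LXR-positive libraries. Nr1h3, the LXRα gene, stood at 123 to 751 in DKO and 114 to 1267 in LXR-positive libraries. Both are totals over whole genes, and since the sources used here do not name the deleted exons, they do not check the genotype labels. With GW3965, the LXR target Abca1 stood at 14916 to 17074 normalized counts in DKO and 35962 to 42061 in LXR-positive libraries.

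Among the ligands, 9 of 18 were detected, and among the receptors, 21 of 25. The 13 members that were not detected were the ligands Lta, Ltb, Cd40lg, Fasl, Cd70, Tnfsf4, Tnfsf8, Tnfsf11 and Tnfsf18 and the receptors Ngfr, Tnfrsf17, Tnfrsf19 and Tnfrsf25, whose highest single values lay between 1.52 (Lta) and 13.9 (Ltb) normalized counts. Lta and Ltb, both lymphotoxin chains, flank Tnf on chromosome 17, and Ltb reached 6.73 to 13.9 normalized counts in DKO KLA libraries and 3.04 to 6.52 in LXR-positive KLA libraries. Of 17 ligands with a known receptor among the members, 7 were detected together with at least 1 of their receptors: Tnf with both TNF receptors, Tnfsf9 with Tnfrsf9, Tnfsf10 with Tnfrsf10b, Tnfsf12 with Tnfrsf12a, Tnfsf13 with Tnfrsf13b, Tnfsf13b with Tnfrsf13b and Tnfrsf13c, and Tnfsf14 with Ltbr and Tnfrsf14. For 9 others the receptor was detected and the ligand was not, among them Cd40lg with Cd40, Fasl with Fas, Cd70 with Cd27, Tnfsf11 with Tnfrsf11a and Tnfsf8 with Tnfrsf8. Tnfsf15, whose receptor is Tnfrsf25, was the 1 ligand detected without a receptor.

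Levels between genes were compared as normalized counts per kilobase of annotated exon. In vehicle libraries Tnfrsf1b, the TNF receptor without a death domain (TNFR2), stood highest of all members, at 1154 ± 89.6 per kilobase in DKO and 1415 ± 233 in LXR-positive cells (SD, n = 3). Tnfrsf1a, the death domain receptor TNFR1, came next at 364 ± 25.3 in DKO and 477 ± 57.3 per kilobase in LXR-positive cells. These levels did not overlap, so the order of the 2 TNF receptors was the same in each vehicle library. Below them, Tnfrsf14, Tnfrsf11a (RANK, the receptor that drives osteoclast formation), Ltbr and the ligand Tnfsf12 followed at means of 167 to 259 per kilobase in DKO and 215 to 306 in LXR-positive cells, and their ranges overlapped within each genotype apart from Tnfrsf11a against Ltbr in DKO. In DKO cells Tnfsfm13, at a mean of 181 per kilobase, lay between Tnfsf12 and Ltbr in this order. Tnf itself ranked 11th in both genotypes, at 79.4 ± 15.8 per kilobase in DKO and 67.0 ± 11.2 in LXR-positive cells.

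**Figure D1:**
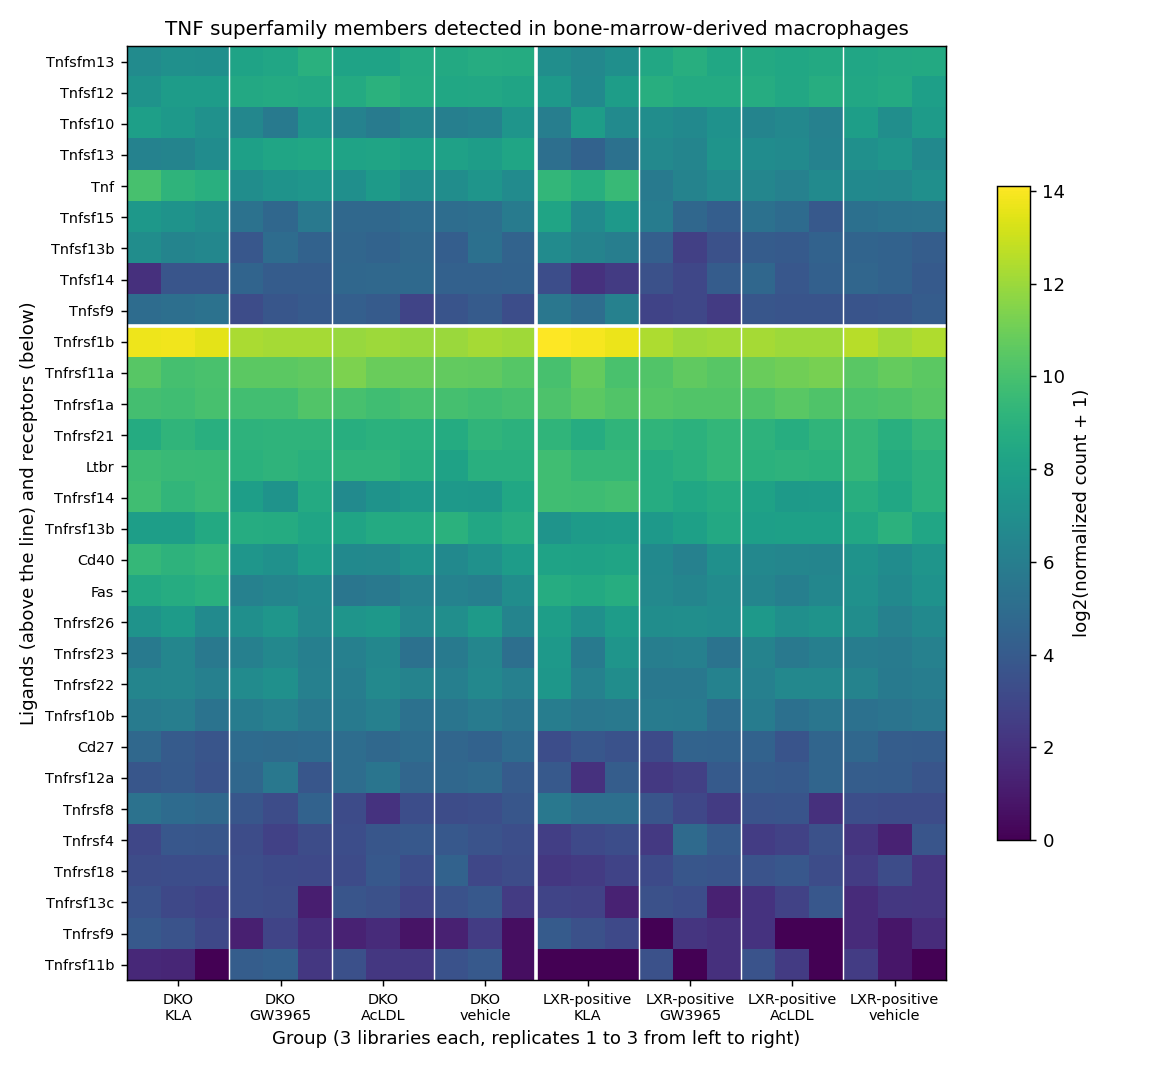
Level of the 30 detected members in each of the 24 libraries, as log2(normalized count + 1) (colour), with ligands above the line and receptors below it. Columns run through KLA, GW3965, AcLDL and vehicle in DKO cells and then in LXR-positive cells, 3 libraries each; Tnfrsf1b is the brightest row throughout, and Tnf, Tnfsf15 and Tnfsf13b are brighter with KLA in both genotypes.

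With KLA, a large share of the detected members changed. Of the 30 detected members, Tnfrsf11b and Tnfrsf18 were too low in the KLA and vehicle libraries to be tested. In DKO cells 11 members rose and 2 fell among 28 tested, and in LXR-positive cells 11 rose and 5 fell (limma on log2(normalized count + 1), Benjamini-Hochberg adjusted p under 0.05 over all genes tested). Over all 15957 genes tested, 25.2% were called in DKO cells (14% higher, 11.1% lower) and 28.6% in LXR-positive cells (16.2% higher, 12.4% lower), against 46.4% of the tested members in DKO and 57.1% in LXR-positive cells. The members' median log2 fold change was 0.17 in DKO cells, against -0.0038 over all genes, and 0.52 in LXR-positive cells, against -0.0028. The genes that rose included Tnf, the T cell costimulator Tnfsf9, the B cell factor Tnfsf13b and the receptors Tnfrsf1b, Fas and Cd40, and those that fell in both genotypes were Tnfsf13 and Tnfsfm13. Of the tested members, 4 passed the filter on low values through 1 treatment alone: Tnfrsf8 and Tnfrsf9 through their KLA libraries, and Tnfsf14 and Tnfrsf4 through their vehicle libraries. Such an entry favours genes that differ in that direction, so calls of these 4 are a description, though Tnfrsf4 was called in neither genotype. Over the other 24 members 9 rose and 2 fell in DKO cells (median log2 fold change 0.17), while 9 rose and 4 fell in LXR-positive cells (0.38). Whether a change comes from fewer cells that hold the transcript or from less of it per cell cannot be told apart in these bulk samples.

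Of the 11 members that rose in LXR-positive cells, 8 have a promoter in the RefSeq set used here (GRCm38.p6, 250 bases before to 50 after a transcript start), as have 33 of the 43 members. The κB consensus decamer, searched on both strands, was found in 2 of those 8, Tnfrsf8 and Tnfrsf9, the pair that entered the test through the KLA libraries alone, and among the remaining members in Ltb and Tnfrsf25, which were not detected. In all it occurred in 4 of the members' 37 promoters, while 8.46% of 32851 RefSeq promoters hold it. A looser κB decamer, which keeps GGG at one end and CC at the other with any bases between and so takes in every match of the consensus, occurred in 23 of the 37, those of Tnf and Tnfrsf1b included, and in 50.8% of all promoters. The AP-1 motif TGANTCA, whose letters cannot share a base with a match of the κB consensus, was found in 7 of the 37, of the genes Fas, Tnfrsf8, Tnfrsf9, Tnfsf13, Tnfsf13b and Tnfsf14, against 7.81% of all promoters. A match describes the letters of a window only. The windows of 4 members that rose are shown to set the sequences beside the values: the pair with a match to the consensus, and Tnf with its receptor Tnfrsf1b, which have none. Capitals mark the κB consensus match, which in Tnfrsf8 and Tnfrsf9 covers 2 overlapping places.
Tnfrsf8 (chr4:145315115-145315414, minus strand): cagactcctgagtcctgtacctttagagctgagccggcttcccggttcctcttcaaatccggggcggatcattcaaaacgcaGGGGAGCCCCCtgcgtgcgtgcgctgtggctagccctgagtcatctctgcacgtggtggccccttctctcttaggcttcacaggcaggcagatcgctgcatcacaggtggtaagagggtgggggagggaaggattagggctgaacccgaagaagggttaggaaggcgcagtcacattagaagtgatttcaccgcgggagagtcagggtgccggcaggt
Tnfrsf9, second promoter (chr4:150927749-150928048, plus strand): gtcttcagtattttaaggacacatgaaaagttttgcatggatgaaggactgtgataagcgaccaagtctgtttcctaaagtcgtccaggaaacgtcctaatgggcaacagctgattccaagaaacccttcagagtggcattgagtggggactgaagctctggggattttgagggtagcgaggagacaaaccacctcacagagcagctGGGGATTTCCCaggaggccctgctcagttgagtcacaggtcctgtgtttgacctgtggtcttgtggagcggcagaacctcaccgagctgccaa
Tnf (chr17:35201958-35202257, minus strand): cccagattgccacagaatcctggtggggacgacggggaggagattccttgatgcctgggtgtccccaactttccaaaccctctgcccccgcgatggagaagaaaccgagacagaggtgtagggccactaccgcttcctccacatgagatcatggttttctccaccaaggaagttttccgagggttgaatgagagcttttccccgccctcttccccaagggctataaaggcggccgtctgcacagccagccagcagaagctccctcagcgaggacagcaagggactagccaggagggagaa
Tnfrsf1b (chr4:145246821-145247120, minus strand): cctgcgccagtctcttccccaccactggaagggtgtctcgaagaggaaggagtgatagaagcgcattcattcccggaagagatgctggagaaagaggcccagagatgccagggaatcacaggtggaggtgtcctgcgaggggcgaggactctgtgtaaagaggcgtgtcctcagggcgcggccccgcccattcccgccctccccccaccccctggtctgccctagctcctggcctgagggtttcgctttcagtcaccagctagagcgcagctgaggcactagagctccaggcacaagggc
The match begins 168 bases before the transcript start in Tnfrsf8 and 43 bases before it in Tnfrsf9.

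Among the ligands, Tnf, which encodes the cytokine itself (ENSMUSG00000024401, chromosome 17, 35199381 to 35202007, GRCm38, minus strand), had 1032, 584 and 478 normalized counts in DKO KLA libraries, against 120.0, 159.6 and 111 in DKO vehicle libraries. In LXR-positive cells it had 649.7, 464 and 727 with KLA, against 102, 96.5 and 131 with vehicle. Every KLA library was above every vehicle library, with log2 fold changes of 2.35 ± 0.27 (SE; limma adjusted p = 5.9e-05) in DKO and 2.46 ± 0.27 (adjusted p = 3.9e-05) in LXR-positive cells. The spread was widest in DKO KLA libraries, where replicate 1 stood well above the others.

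Tnfsf15 (TL1A, a costimulator of T cells) stood at 181, 149 and 120.0 normalized counts in DKO KLA libraries, against 31.9, 35.0 and 58.2 with vehicle. It stood at 303, 105 and 189.7 in LXR-positive KLA libraries, against 35.7, 39.7 and 41.5 with vehicle. The KLA and vehicle libraries did not overlap in either genotype, and the log2 fold changes were 1.85 ± 0.34 in DKO (limma adjusted p = 0.0018) and 2.20 ± 0.34 in LXR-positive cells (4.9e-04). Tnfsf13b (BAFF, the survival factor of B cells) had 120.2, 81.4 and 91.2 normalized counts in DKO KLA libraries, against 17.4, 35.6 and 21.6 with vehicle, and 112, 79.4 and 63.8 in LXR-positive KLA libraries, against 22.6, 21.0 and 17.1 with vehicle. Again all KLA libraries were the higher ones, at log2 fold changes of 1.97 ± 0.30 in DKO and 1.99 ± 0.30 in LXR-positive cells (limma adjusted p = 4.6e-04 in DKO and 3.6e-04 in LXR-positive cells).

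Tnfsf9 (4-1BB ligand) was a low gene that rose in each genotype. It had 31.3, 35.1 and 39.2 normalized counts in DKO KLA libraries, against 11.6, 15.4 and 9.02 with vehicle, and 47.0, 31.4 and 72.9 in LXR-positive KLA libraries, against 11.9, 12.5 and 15.9 with vehicle. The log2 fold changes were 1.50 ± 0.32 in DKO and 1.76 ± 0.32 in LXR-positive cells (limma adjusted p = 0.0051 in DKO and 0.0016 in LXR-positive cells), with no overlap of KLA and vehicle libraries. It shares 192 exon bases with Gm11110 on the opposite strand, and since the sources used here do not say whether the counting used strand, its counts are uncertain to that extent.

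Of the ligands that fell, 3 lie side by side on chromosome 11. Tnfsf13 encodes APRIL, which acts on B cells and plasma cells (ENSMUSG00000089669, chromosome 11, 69682846 to 69685784, minus strand). It fell to 74.7, 81.4 and 116 normalized counts with KLA in DKO cells, against 269, 232 and 313 with vehicle. In LXR-positive cells it fell to 33.9, 21.0 and 37.9, against 134, 164 and 103 with vehicle. Each KLA library was below each vehicle library of its genotype, and the log2 fold changes were -1.59 ± 0.26 (limma adjusted p = 8.1e-04) in DKO and -2.09 ± 0.26 (9.5e-05) in LXR-positive cells. Tnfsfm13, the read-through gene that joins Tnfsf12 to Tnfsf13, had 110.2, 134 and 129.8 normalized counts in DKO KLA libraries, against 376, 427 and 412 with vehicle, and 125, 95.8 and 128 in LXR-positive KLA libraries, against 329.5, 370.4 and 378 with vehicle. It fell in both, with log2 fold changes of -1.69 ± 0.14 in DKO and -1.63 ± 0.14 in LXR-positive cells (limma adjusted p = 5.8e-06 in DKO and 8.0e-06 in LXR-positive cells), with no overlap.

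Tnfsf12 encodes TWEAK, a ligand of the receptor Fn14. It stood at 148, 217 and 220.4 normalized counts in DKO KLA libraries, against 338, 355 and 301 with vehicle, and at 193, 103 and 231 in LXR-positive KLA libraries, against 345, 388 and 247 with vehicle. Its log2 fold changes were -0.78 ± 0.28 in DKO (limma adjusted p = 0.058) and -0.94 ± 0.28 in LXR-positive cells (0.023), so that the change passed the test in LXR-positive cells and not in DKO cells. The LXR-positive call ended without vehicle replicate 1 or 2, without KLA replicate 2 and with only the 6 libraries compared (adjusted p over the alternatives 0.0029 to 0.082). In DKO cells edgeR (adjusted p = 0.042) and DESeq2 (adjusted p = 0.018) did call it (range over the alternatives 0.013 to 0.20). Tnfsfm13 shares 731 exon bases with Tnfsf12 and 983 with Tnfsf13 on the same strand, and Tnfsf13 shares 221 with the antisense gene Tnfsf13os, so the division of reads among these 3 genes is uncertain. Tnfsf14 (LIGHT, a ligand of HVEM and the lymphotoxin β receptor) had 2.84, 12.0 and 12.2 normalized counts in DKO KLA libraries, against 19.8, 19.6 and 20.7 with vehicle, a log2 fold change of -1.27 ± 0.51 that did not pass (limma adjusted p = 0.090). In LXR-positive cells it had 9.13, 3.00 and 4.55 with KLA, against 23.8, 21.0 and 14.7 with vehicle, and fell, with a log2 fold change of -1.75 ± 0.51 (limma adjusted p = 0.022), having entered the test through its vehicle libraries alone. Its call ended without LXR-positive vehicle replicate 1 or 2, without KLA replicate 2 or 3, with quantile normalization and with thinned reads (adjusted p over the alternatives 0.0039 to 0.11).

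**Figure D2:**
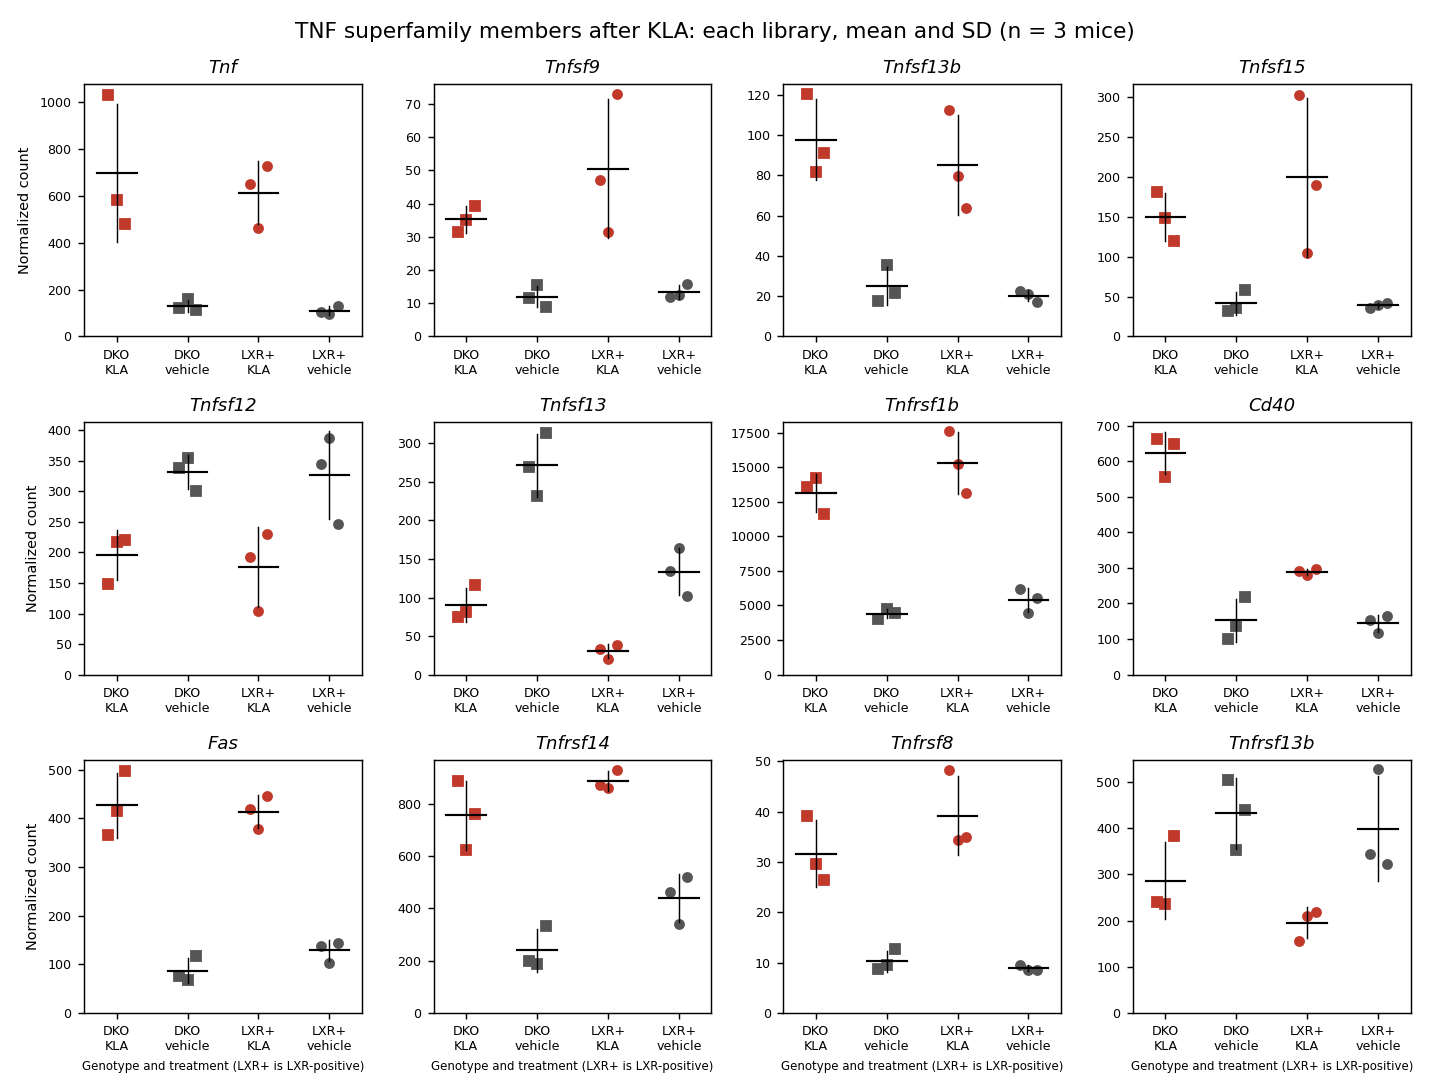
Normalized counts of 12 members in KLA (red) and vehicle (grey) libraries of DKO (squares) and LXR-positive cells (circles, LXR+). Points are libraries, the horizontal bar is the mean and the vertical line the SD of 3 mice; KLA points lie above vehicle points for Tnf, Tnfsf9, Tnfsf13b, Tnfsf15, Tnfrsf1b, Cd40, Fas, Tnfrsf14 and Tnfrsf8 and below them for Tnfsf12 and Tnfsf13.

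Of the receptors, Tnfrsf1b (ENSMUSG00000028599, chromosome 4, 145213463 to 145246870, minus strand) had the highest counts. It stood at 13570.4, 14206 and 11592 normalized counts in DKO KLA libraries, against 4046, 4726 and 4445 with vehicle, and at 17596, 15195 and 13102 in LXR-positive KLA libraries, against 6216, 4455 and 5540.0 with vehicle. It rose by 1.57 ± 0.15 on the log2 scale in DKO (limma adjusted p = 1.2e-05) and by 1.50 ± 0.15 in LXR-positive cells (1.7e-05), and the treatments did not overlap. Tnfrsf1a, the other TNF receptor, had 959, 891 and 1029.6 normalized counts in DKO KLA libraries, against 966, 868 and 993 with vehicle, and 1135, 1517 and 1222 in LXR-positive KLA libraries, against 1105, 1207 and 1398 with vehicle. These values overlapped in each genotype, with log2 fold changes of 0.03 ± 0.13 in DKO and 0.06 ± 0.13 in LXR-positive cells (limma adjusted p = 0.91 in DKO and 0.77 in LXR-positive cells).

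Cd40, the receptor through which T cells activate macrophages and B cells (ENSMUSG00000017652, chromosome 2, 165055627 to 165072948, plus strand), had 664, 557 and 649 normalized counts in DKO KLA libraries, against 102, 137 and 219 with vehicle. In LXR-positive libraries it had 291, 280.0 and 296 with KLA, against 152, 117 and 164 with vehicle. KLA libraries were all above vehicle libraries, at log2 fold changes of 2.09 ± 0.23 in DKO (limma adjusted p = 4.5e-05) and 1.01 ± 0.23 in LXR-positive cells (0.0061). Fas, the death receptor of Fas ligand, had 366, 416 and 498 normalized counts in DKO KLA libraries, against 75.5, 68.2 and 118 with vehicle, and 419, 377 and 446 in LXR-positive KLA libraries, against 138, 103 and 144 with vehicle. It rose by 2.31 ± 0.21 in DKO and 1.69 ± 0.21 in LXR-positive cells on the log2 scale (limma adjusted p = 1.0e-05 in DKO and 9.6e-05 in LXR-positive cells), again without overlap.

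Tnfrsf14 (HVEM) stood at 885, 621 and 763 normalized counts in DKO KLA libraries, against 199.8, 186 and 333 with vehicle, and at 871, 859.6 and 929 in LXR-positive KLA libraries, against 462, 340.1 and 519 with vehicle. All KLA values were the higher ones, with log2 fold changes of 1.69 ± 0.22 in DKO (limma adjusted p = 1.6e-04) and 1.03 ± 0.22 in LXR-positive cells (0.0043). Ltbr, the lymphotoxin β receptor, had 820.0, 763 and 714 normalized counts in DKO KLA libraries, against 283, 485 and 468 with vehicle, and 862, 660.4 and 669 in LXR-positive KLA libraries, against 669.8, 416 and 544 with vehicle. It rose in DKO cells, where the treatments did not overlap (0.93 ± 0.22, limma adjusted p = 0.0080). In LXR-positive cells, where 1 vehicle library lay within the KLA values, it did not pass (0.44 ± 0.22, adjusted p = 0.15).

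Tnfrsf8 (CD30) and Tnfrsf9 (4-1BB) were low genes that entered the test through their KLA libraries alone, so their calls are a description. Tnfrsf8 had 39.1, 29.6 and 26.3 normalized counts in DKO KLA libraries, against 8.71, 9.50 and 12.6 with vehicle, and 48.3, 34.4 and 34.9 in LXR-positive KLA libraries, against 9.52, 8.56 and 8.55 with vehicle. Its log2 fold changes were 1.53 ± 0.28 in DKO and 2.01 ± 0.28 in LXR-positive cells (limma adjusted p = 0.0017 in DKO and 2.2e-04 in LXR-positive cells), with no overlap. Tnfrsf9 had 14.2, 11.1 and 7.35 normalized counts in DKO KLA libraries, against 1.45, 4.75 and 0.451 with vehicle, and 15.7, 10.5 and 7.59 in LXR-positive KLA libraries, against 2.38, 0.778 and 2.44 with vehicle. Its calls (2.08 ± 0.58 in DKO and 2.10 ± 0.58 in LXR-positive cells, limma adjusted p = 0.022 in DKO and 0.018 in LXR-positive cells) ended in DKO cells without vehicle replicate 1 or 3 or KLA replicate 1 or 2, and in LXR-positive cells without vehicle replicate 2 or KLA replicate 1. The adjusted p over the alternatives was 0.0038 to 0.084 in DKO and 0.011 to 0.064 in LXR-positive cells.

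Tnfrsf13b (TACI, a receptor of BAFF and APRIL) had 240.4, 237 and 383 normalized counts in DKO KLA libraries, against 504, 353 and 439.6 with vehicle, values that overlapped and did not pass (-0.61 ± 0.24, limma adjusted p = 0.084). In LXR-positive cells it had 157, 209.7 and 219 with KLA, against 344, 529 and 323 with vehicle, and fell there (-1.01 ± 0.24, limma adjusted p = 0.0078), without overlap. The 8 B cell markers summed to 53.3 to 99.6 normalized counts in DKO KLA libraries and 57.7 to 99.7 with vehicle, where Blk was at 0. In LXR-positive cells they summed to 46.4 to 60.0 with KLA, where Blk was also at 0, and to 75.8 to 83.3 with vehicle, and their part in the Tnfrsf13b values was not tested.

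Tnfrsf22, Tnfrsf23 and Tnfrsf26 are close copies on chromosome 7, among which reads may have been divided uncertainly. Tnfrsf22, a mouse decoy receptor of TRAIL, had 177, 71.9 and 121 normalized counts in LXR-positive KLA libraries, against 77.3, 52.1 and 61.1 with vehicle. The libraries overlapped, and its call (0.87 ± 0.29, limma adjusted p = 0.041) ended without vehicle replicate 2 or 3, without KLA replicate 1 or 3, without the filter on low values and with only the 6 libraries compared (adjusted p over the alternatives 0.0039 to 0.15). Tnfrsf26 missed the threshold in LXR-positive cells (0.99 ± 0.35, limma adjusted p = 0.055) and passed it in 6 of 15 alternatives, the mouse as a block among them (0.0015; range over the alternatives 0.0015 to 0.17). The receptors Tnfrsf10b, Tnfrsf21 (DR6), Tnfrsf12a (Fn14), Tnfrsf13c (the BAFF receptor), Tnfrsf4 (OX40), Tnfrsf23, Cd27 and Tnfrsf11a were called in neither genotype, and their log2 fold changes lay between -0.77 (Tnfrsf12a) and 0.87 (Tnfrsf23, DKO and LXR-positive cells together). Of these, Tnfrsf11a passed in DKO cells with the mouse as a block (-0.44 ± 0.19, adjusted p = 0.034, against 0.11 without it; range over the alternatives 0.034 to 0.29).

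The response to KLA was then compared between genotypes directly. Of 28 members 0 differed in limma at an adjusted p under 0.05, where 0.0689% of 15957 genes did, and edgeR (0.0877% of all genes) and DESeq2 (0.307%) called 0 members as well. At an unadjusted p under 0.05 there were 2, Cd40 and Tnfsf10, beside 855 of the 15957 genes. In limma with the mouse as a block 0 members were called (20 of 15957 genes), and 5 had an unadjusted p under 0.05 (1214 genes). The response of Cd40 was larger in DKO cells by 1.08 ± 0.33 on the log2 scale (limma unadjusted p = 0.0063, adjusted p = 0.86). In the authors' deposited table for KLA, 31 members carry an adjusted p for this difference and 0 are below 0.05, Cd40 having a log2 difference of 1.02 (the authors' standard error 0.371), whose direction is not stated there, and an adjusted p of 0.521.

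Pathway genes that are no members, most of them listed as acting downstream of the receptors, also changed with KLA. The 55 were listed as adaptors and kinases, ubiquitin and feedback genes, noncanonical NF-κB genes and shedding genes. Of these, 54 were tested, and with KLA 19 rose and 4 fell in DKO cells, while 17 rose and 5 fell in LXR-positive cells in limma. Over all 15957 genes tested, 14% rose and 11.1% fell in DKO cells, and 16.2% rose and 12.4% fell in LXR-positive cells. The adaptors and kinases gave 10 higher and 1 lower of 26 in DKO and 9 higher and 1 lower in LXR-positive cells. The 3 with the largest changes in LXR-positive cells were Traf1, an adaptor of TNFR2 and CD40 (2.57 ± 0.33 in DKO, 3.01 ± 0.33 in LXR-positive cells), Cflar, the inhibitor of caspase-8 activation (1.49 ± 0.13 in DKO, 1.43 ± 0.13 in LXR-positive cells), and Traf2 (1.21 ± 0.12 in DKO, 1.19 ± 0.12 in LXR-positive cells). Mlkl, which carries out necroptosis, changed more than Cflar and Traf2 in DKO cells (1.82 ± 0.21 in DKO, 1.18 ± 0.21 in LXR-positive cells). Ubiquitin and feedback genes gave 6 higher and 2 lower of 17 in DKO and 5 higher and 2 lower in LXR-positive cells. The 3 with the largest changes in LXR-positive cells were the NF-κB inhibitors Tnip3 (2.05 ± 0.20 in DKO, 2.05 ± 0.20 in LXR-positive cells), Tnfaip3 (1.86 ± 0.22 in DKO, 1.64 ± 0.22 in LXR-positive cells), which encodes A20, and Tnip1 (1.35 ± 0.16 in DKO, 1.31 ± 0.16 in LXR-positive cells). The median log2 fold change of the adaptors and kinases was 0.21 in DKO and 0.22 in LXR-positive cells, and that of the ubiquitin and feedback genes 0.26 in DKO and 0.18 in LXR-positive cells, beside the medians near 0 over all genes given above. Among the 5 genes listed under noncanonical NF-κB, Nfkb2 rose in both (1.24 ± 0.15 in DKO, 1.21 ± 0.15 in LXR-positive cells), and Traf3ip3 fell in LXR-positive cells (-0.56 ± 0.17). Of the 6 shedding genes, listed for the release of TNF and other proteins from the membrane or its control, 2 rose and 1 fell in each genotype. Adam17 (0.58 ± 0.10 in DKO, 0.61 ± 0.10 in LXR-positive cells) and its partner Rhbdf2 (1.08 ± 0.16 in DKO, 0.81 ± 0.16 in LXR-positive cells) rose, and Rhbdf1 fell in LXR-positive cells (-1.36 ± 0.39) and did not pass in DKO cells (limma adjusted p = 0.083).

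Summed counts of cell type markers also moved with KLA. The 9 dendritic cell markers summed to 2878 to 3506 normalized counts in DKO KLA libraries and 1100.1 to 1547 with vehicle, and to 1888 to 2346 in LXR-positive KLA libraries, where Cd209a was at 0, and 799 to 1009 with vehicle. The 12 neutrophil markers summed to 3339.6 to 7583 in DKO KLA libraries and 6477 to 9446 with vehicle, and to 2252 to 2679 in LXR-positive KLA libraries, where Ly6g was at 0, and 4630.1 to 4786 with vehicle. The 11 macrophage markers summed to 299001 to 340675 in DKO KLA libraries and 190199.7 to 224045 with vehicle, and to 380067 to 451478 in LXR-positive KLA libraries and 242885 to 315223 with vehicle. The 9 osteoclast markers summed to 1913 to 2479.9 in DKO KLA libraries and 3912 to 5920.4 with vehicle, and to 1843 to 2275 in LXR-positive KLA libraries and 3111 to 5533 with vehicle, Calcr being at 0 in both vehicle groups. The 13 T and NK cell markers summed to 121 to 141 in DKO KLA libraries, where Klrb1c was at 0, and 210.1 to 328 with vehicle. In LXR-positive cells they summed to 76.4 to 145 with KLA, where Trac, Ncr1 and Prf1 were at 0, and 331 to 423 with vehicle, where Cd3e, Trac, Ncr1 and Gzmb were. The sums of the stromal and of the erythroid and megakaryocyte markers overlapped between KLA and vehicle in both genotypes. Mitochondrial genes took 8.76 to 12.6% of reads in DKO KLA libraries and 14 to 16.6% with vehicle, and 8.99 to 15.5% in LXR-positive KLA libraries and 14.3 to 19.3% with vehicle. Each sum rests mainly on its most abundant genes, so it need not show the course of a whole list. Only 2 of 9 dendritic cell markers, Bst2 and Itgax, and 1 of 13 T and NK cell markers, Cd4, had a median above 100. Lyz2 was the most abundant of the macrophage markers and Atp6v0d2 of the osteoclast markers. The part of these shifts in the members' changes was not tested.

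**Figure D3:**
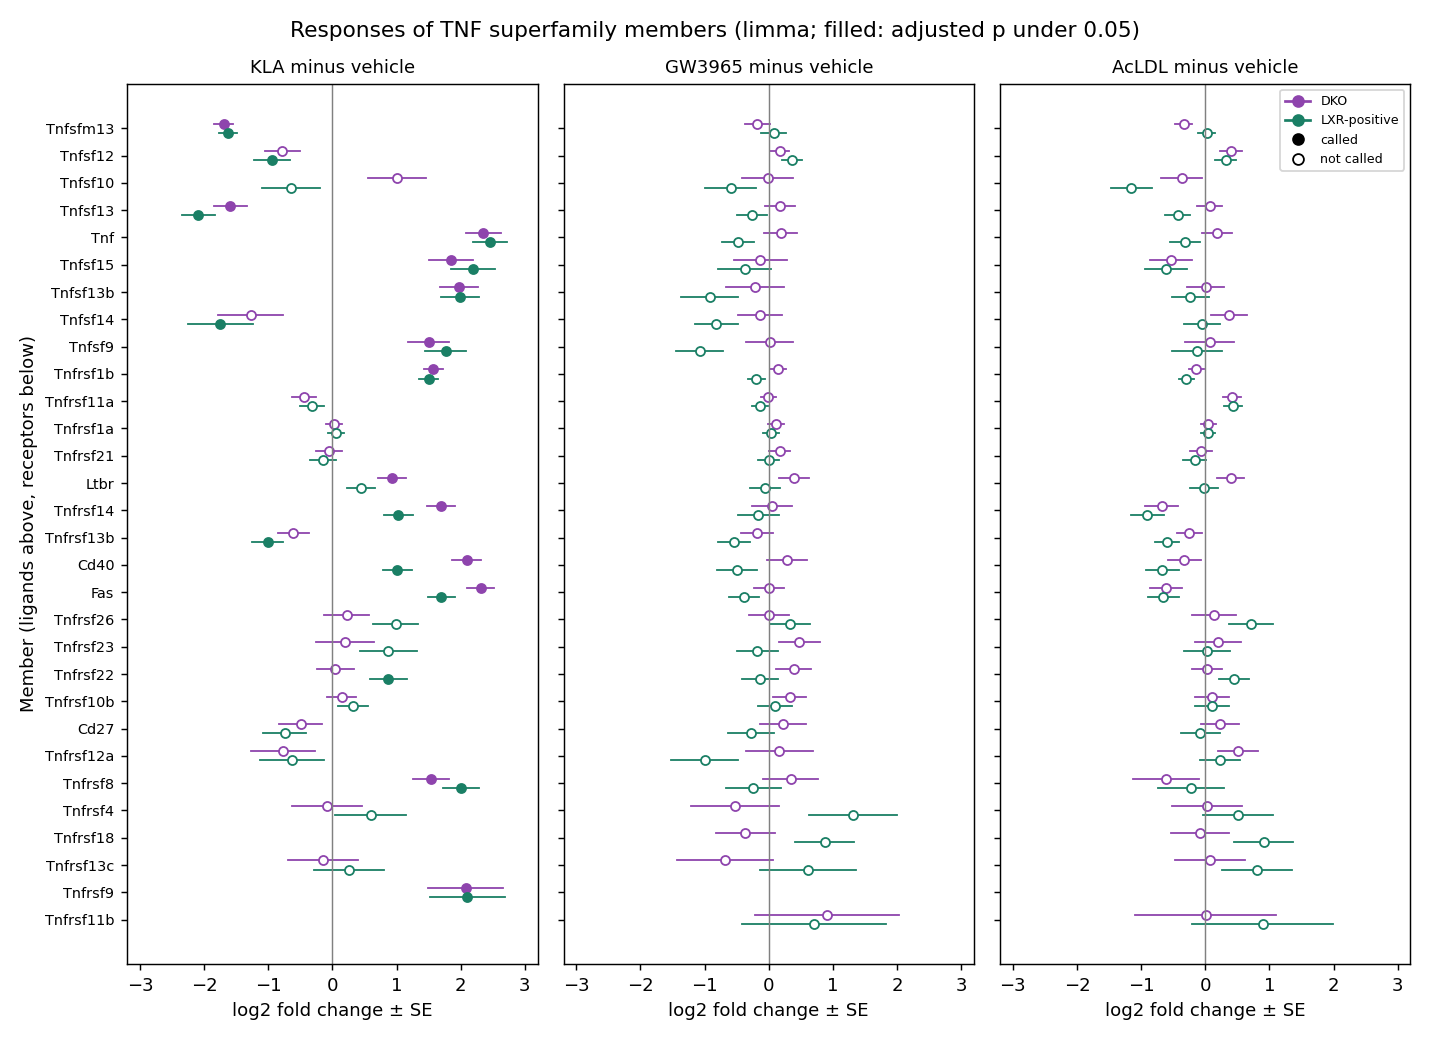
Log2 fold changes (± SE, limma on 12 libraries per panel) of the tested members with KLA, GW3965 and AcLDL against vehicle, in DKO (purple, upper point of a row) and LXR-positive cells (green). Filled points have an adjusted p under 0.05; they occur only in the KLA panel, 13 for DKO and 16 for LXR-positive cells.

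With GW3965, no change of a member passed the test in either genotype. In limma 0 of 29 tested members were called in DKO cells, where 0.00621% of 16116 genes were, and 0 of 29 in LXR-positive cells, where 0.267% were. The members' median log2 fold change was 0.11 in DKO cells, against 0.0020 over all genes. In LXR-positive cells it was -0.18, against -0.016. Of the 29 members, 19 lay above 0 in DKO cells and 9 in LXR-positive cells. At an unadjusted p under 0.05 the counts were 0 in DKO and 4 in LXR-positive cells, beside 940 and 988 of the 16116 genes. Members called numbered 0 in each genotype in edgeR (0% of all genes in DKO, 0.242% in LXR-positive cells) and in DESeq2 (0.161% in DKO, 0.534% in LXR-positive cells). The largest of the 4 was that of Tnfsf9. It had 8.63, 12.8 and 15.2 normalized counts in DKO GW3965 libraries, against 11.6, 15.4 and 9.02 with vehicle, with overlap. In LXR-positive cells it had 6.10, 7.13 and 4.42 with GW3965, against 11.9, 12.5 and 15.9 with vehicle, without overlap (-1.08 ± 0.37, limma adjusted p = 0.61). Tnfsf14 (-0.82 ± 0.34), Tnfrsf13b (-0.55 ± 0.25) and Tnfsf12 (0.36 ± 0.15) were the others. Tnf had 121, 151 and 169.7 normalized counts in DKO GW3965 libraries, against 120.0, 159.6 and 111 with vehicle (0.18 ± 0.25), and 54.9, 78.4 and 111 in LXR-positive GW3965 libraries, against 102, 96.5 and 131 with vehicle (-0.47 ± 0.25, limma adjusted p = 0.83). The response to GW3965 differed between genotypes for 0 of 29 members in limma (0.118% of all genes), with 0 at an unadjusted p under 0.05 (752 of 16116 genes), 0 in edgeR (0.0993%) and 0 in DESeq2 (0.341%). In limma with the mouse as a block 0 were called (19 of 16116 genes), and 3 had an unadjusted p under 0.05 (1051 genes). The members' median difference was 0.37 on the log2 scale, against 0.013 over all genes, with 23 of 29 above 0. This shift of the members as a set was not tested. Of the 54 pathway genes 0 were called in either genotype in limma, with or without the mouse as a block, in edgeR or in DESeq2.

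With AcLDL, limma likewise called 0 of 29 members in DKO cells (0.125% of 16026 genes) and 0 of 29 in LXR-positive cells (0.225%). Unadjusted p-values under 0.05 numbered 5 in DKO and 7 in LXR-positive cells, beside 1004 and 1979 of the 16026 genes. Here edgeR called 0 in each (0.112% of all genes in DKO, 0.125% in LXR-positive cells), and DESeq2 called 0 in DKO (0.487%) and 1 in LXR-positive cells (1.69%). That 1 was Tnfsf10, which encodes the death ligand TRAIL. It had 75.0, 58.4 and 85.7 normalized counts in DKO AcLDL libraries, against 67.2, 76.0 and 159.6 with vehicle, with overlap. In LXR-positive cells it had 81.3, 95.0 and 71.6 with AcLDL, against 237, 125 and 210.2 with vehicle, without overlap (-1.15 ± 0.32, limma adjusted p = 0.19, DESeq2 0.049; range over the alternatives 0.049 to 0.38).

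Tnfrsf14 had 108, 148 and 187 normalized counts in DKO AcLDL libraries, against 199.8, 186 and 333 with vehicle, and 279, 206 and 216 in LXR-positive AcLDL libraries, against 462, 340.1 and 519 with vehicle. The values did not overlap in LXR-positive cells and overlapped in DKO cells. The log2 fold changes of -0.68 ± 0.26 in DKO and -0.90 ± 0.26 in LXR-positive cells did not pass (limma adjusted p = 0.71 in DKO and 0.20 in LXR-positive cells), but with the mouse as a block that of LXR-positive cells did (0.036; range over the alternatives 0.036 to 0.38). Fas (-0.61 ± 0.25 in DKO and -0.65 ± 0.25 in LXR-positive cells) and Tnfrsf11a (0.42 ± 0.14 in DKO and 0.44 ± 0.14 in LXR-positive cells) were the remaining members below an unadjusted 0.05 in both genotypes. A genotype difference in the response to AcLDL was called for 0 of 29 members in limma (0.025% of all genes), 0 at an unadjusted p under 0.05 (543 of 16026 genes), 0 in edgeR (0.025%) and 0 in DESeq2 (0.0749%). In limma with the mouse as a block 0 were called (4 of 16026 genes), and 3 had an unadjusted p under 0.05 (810 genes). Of the 54 pathway genes, limma and edgeR called 0 with AcLDL in either genotype. DESeq2 called 1 lower in DKO cells and 1 higher and 2 lower in LXR-positive cells, and limma with the mouse as a block called 0 in DKO cells and 1 higher and 3 lower in LXR-positive cells. Over all genes DESeq2 called 78 of 16016 in DKO and 270 in LXR-positive cells, and the block 38 of 16026 in DKO and 247 in LXR-positive cells. The authors' deposited tables likewise hold 0 members with an adjusted p under 0.05 for the difference in response to GW3965 or AcLDL, among 28 with an adjusted p in each.

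Compared between genotypes at the same treatment, Tnfsf13 (APRIL) was called with KLA, GW3965 and AcLDL, Cd40 with KLA and Tnf with GW3965, each higher in DKO cells. With KLA 2 of 28 were called, both higher in DKO, where 6.87% of all genes were called (3.01% higher). With GW3965 2 of 29 were called, both higher, where 9.64% were (4.2% higher), and with AcLDL 1 of 29, higher, where 8.6% were (3.76% higher). With vehicle 0 of 29 were called in limma, where 0.316% of genes were, with 6 at an unadjusted p under 0.05 (1965 of 16116 genes), 0 in edgeR (0.285%) and 1, Tnfsf13, in DESeq2 (1.89%). The shares of members called, 7.14% with KLA, 6.9% with GW3965 and 3.45% with AcLDL, were near or below the shares of all genes called in either direction.

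Tnfsf13 was higher in DKO than in LXR-positive cells with all 3 agents, by 1.46 to 1.54 on the log2 scale. With KLA it had 74.7, 81.4 and 116 normalized counts in DKO libraries, against 33.9, 21.0 and 37.9 in LXR-positive libraries (1.54 ± 0.26, limma adjusted p = 0.010). With GW3965 it had 259, 312 and 343 in DKO libraries, against 99.6, 85.5 and 155 in LXR-positive libraries (1.46 ± 0.23, adjusted p = 0.0054). With AcLDL it had 289, 302 and 258 in DKO libraries, against 113, 107 and 76.0 in LXR-positive libraries (1.53 ± 0.20, adjusted p = 0.0035). In all 3 treatments every DKO library was above every LXR-positive library.

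With vehicle, Tnfsf13 had 269, 232 and 313 normalized counts in DKO libraries, against 134, 164 and 103 in LXR-positive libraries, again without overlap. That difference of 1.03 ± 0.23 did not pass in limma (adjusted p = 0.12) and passed in DESeq2 (0.0030; range over the alternatives 0.0030 to 0.40). The 4 comparisons use the same 6 mice, so they are not independent of each other. Tnfsfm13, which shares exons with it, was not called. With GW3965 it had 284, 325 and 495 in DKO libraries, against 349.7, 462 and 333 in LXR-positive libraries (-0.08 ± 0.19, limma adjusted p = 0.83), and its difference lay between -0.18 (AcLDL) and 0.17 (vehicle) over the 4 treatments. Tnfsf12 differed by -0.15 (GW3965) to 0.21 (KLA) and was not called.

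The 3 calls of Tnfsf13 were kept under every alternative run, leaving out any library included (adjusted p at most 0.044 with KLA, 0.026 with GW3965 and 0.025 with AcLDL), and also with all libraries thinned to 6448579 reads. Other measures differed between the genotypes as well. The 12 neutrophil markers summed to 8095 to 11981 normalized counts in DKO and 3965 to 6517 in LXR-positive GW3965 libraries, to 6415 to 9265 in DKO and 3602 to 4252 in LXR-positive AcLDL libraries, and to 3339.6 to 7583 in DKO and 2252 to 2679 in LXR-positive KLA libraries. The 9 dendritic cell markers summed to 1361 to 1856 in DKO and 700.3 to 806 in LXR-positive GW3965 libraries, to 977 to 1928 in DKO and 597 to 764 in LXR-positive AcLDL libraries, and to 2878 to 3506 in DKO and 1888 to 2346 in LXR-positive KLA libraries. With vehicle the genotypes also stood apart, at 1100.1 to 1547 in DKO and 799 to 1009 in LXR-positive libraries. The 10 stromal markers summed to 1724 to 8969 in DKO and 255 to 984 in LXR-positive GW3965 libraries, and overlapped with AcLDL (289 to 5031 in DKO, 181 to 1356 in LXR-positive libraries) and with KLA (323 to 2424 in DKO, 259 to 1235 in LXR-positive libraries). The 11 macrophage markers summed to 203856 to 265393 in DKO and 282399.9 to 319640.3 in LXR-positive GW3965 libraries, to 151513 to 196963 in DKO and 238966 to 272818 in LXR-positive AcLDL libraries, and to 299001 to 340675 in DKO and 380067 to 451478 in LXR-positive KLA libraries. Of these lists' markers, 0 were at 0 in all libraries of a GW3965 or AcLDL group. These sums too rest mainly on a few abundant genes, and the markers' part in the Tnfsf13 difference was not tested.

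The second call with KLA was Cd40, at 664, 557 and 649 normalized counts in DKO libraries, against 291, 280.0 and 296 in LXR-positive libraries, without overlap (1.10 ± 0.23, limma adjusted p = 0.020). Leaving out any DKO KLA library or LXR-positive KLA library 3, and thinning the reads, ended this call (adjusted p over the alternatives 3.8e-04 to 0.068). With vehicle Cd40 had 102, 137 and 219 in DKO libraries, against 152, 117 and 164 in LXR-positive libraries, with overlap. The second call with GW3965 was Tnf, at 121, 151 and 169.7 normalized counts in DKO libraries, against 54.9, 78.4 and 111 in LXR-positive libraries (0.89 ± 0.25, limma adjusted p = 0.045). The groups did not overlap, but the call ended in 10 of 15 alternatives, edgeR, thinned reads and leaving out any DKO GW3965 library or LXR-positive GW3965 replicate 1 or 2 among them (adjusted p 0.016 to 0.14). With the replicate number as a block, 2 more members were called with GW3965, Cd40 as higher in DKO (0.80 ± 0.31, limma adjusted p = 0.12, with the block 0.027) and Tnfrsf14 as lower (-0.69 ± 0.31, adjusted p = 0.18, with the block 0.041). Across genotypes a number marks different mice, so this block is not a pairing by mouse. Over the alternatives their adjusted p was 0.027 to 0.30 for Cd40 and 0.041 to 0.52 for Tnfrsf14. With AcLDL Tnf had 128, 206 and 119.8 in DKO libraries, against 89.3, 71.2 and 105 in LXR-positive libraries, without overlap and short of the threshold (0.74 ± 0.24, limma adjusted p = 0.074). DESeq2 and thinned reads did call it (adjusted p over the alternatives 0.040 to 0.27). Tnfrsf12a with GW3965 had 25.2, 49.5 and 12.7 in DKO libraries, against 4.07, 5.35 and 14.7 in LXR-positive libraries, with overlap. It was called in 4 of 15 alternatives, DESeq2 among them, and not in limma (adjusted p over the alternatives 0.023 to 0.21).

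Tnfrsf1a stood lower in DKO cells in each treatment, without being called in limma. With KLA it had 959, 891 and 1029.6 normalized counts in DKO libraries, against 1135, 1517 and 1222 in LXR-positive libraries (-0.42 ± 0.13, limma adjusted p = 0.070, DESeq2 0.027; range over the alternatives 0.027 to 0.21). With AcLDL it had 1016, 884 and 1018 in DKO libraries, against 1180.2, 1437 and 1204 in LXR-positive libraries (-0.39 ± 0.12, limma adjusted p = 0.061, DESeq2 0.024; range over the alternatives 0.024 to 0.23). The genotypes overlapped in none of the 4 treatments, which use the same mice and so are not independent of each other. Its differences were -0.32 ± 0.13 with GW3965 (limma adjusted p = 0.12) and -0.39 ± 0.13 with vehicle (0.26). Of the 54 pathway genes, 1 was higher and 2 lower in DKO cells with KLA, 3 and 7 with GW3965, 1 and 4 with AcLDL and 0 and 0 with vehicle in limma. In DESeq2 these counts were 2 higher and 4 lower with KLA, 3 and 8 with GW3965, 1 and 6 with AcLDL and 0 and 2 with vehicle, and in edgeR 1 higher and 2 lower with KLA, 3 and 6 with GW3965, 1 and 3 with AcLDL and 0 and 0 with vehicle. With the replicate number as a block they were 0 and 0 with KLA, 5 and 7 with GW3965, 2 and 4 with AcLDL and 0 and 1 with vehicle. Over all genes, in either direction, limma called 1097 of 15957 with KLA, 1553 of 16116 with GW3965, 1379 of 16026 with AcLDL and 51 of 16116 with vehicle. In the same order DESeq2 called 1803 of 15949, 2110 of 16110, 1868 of 16016 and 304 of 16110. Of the genes tested in limma, edgeR called 999, 1241, 1188 and 46, and the block 832, 2182, 1433 and 91.

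**Figure D4:**
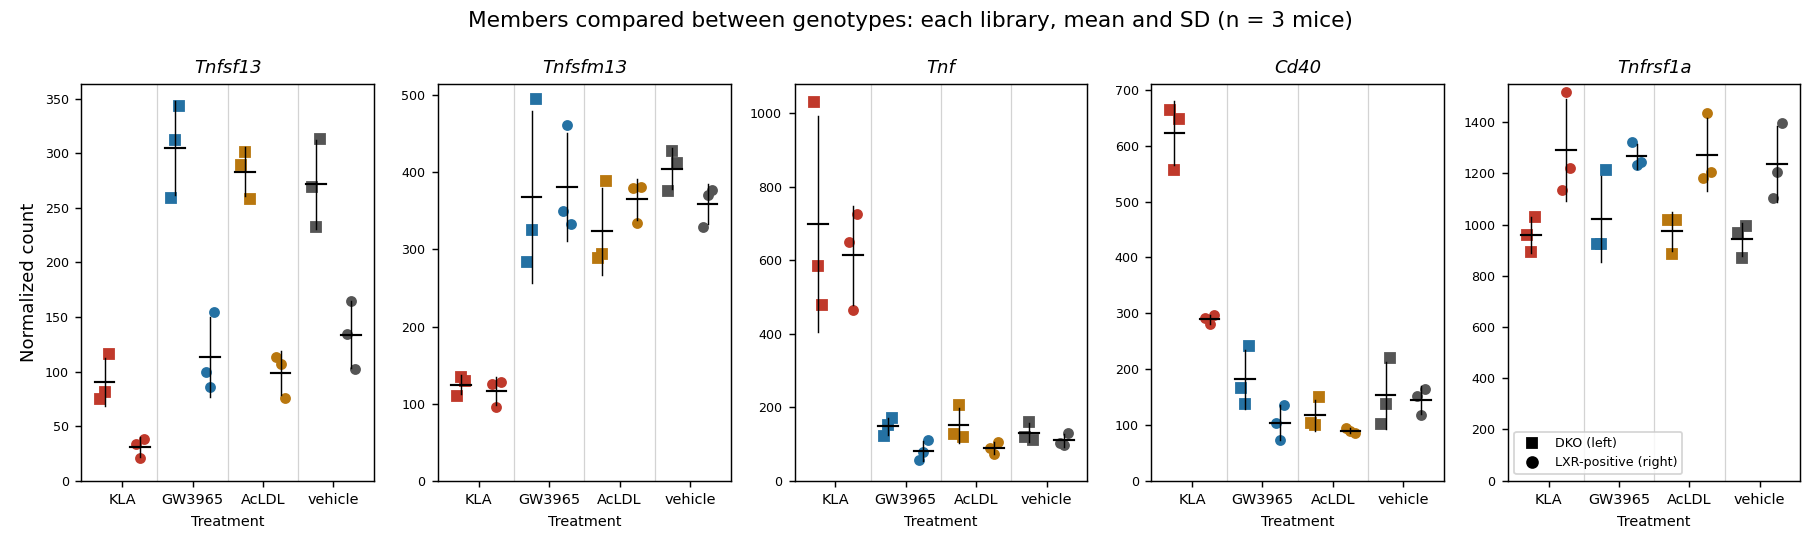
Normalized counts of Tnfsf13, Tnfsfm13, Tnf, Cd40 and Tnfrsf1a in DKO (squares, left of each pair) and LXR-positive libraries (circles, right) for each treatment. Points are libraries, the horizontal bar is the mean and the vertical line the SD of 3 mice; Tnfsf13 squares lie above the circles in all 4 treatments, and Cd40 squares do so with KLA, GW3965 and AcLDL.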

How the data were processed

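Per the labels' protocols, 500 ng of total RNA per mouse and treatment entered a stranded total RNA kit, and per the series' design text reads were single-end, 50 bp. Per the submitters' processing notes kallisto and DESeq2 were used with GRCm38, and the sources used here do not give versions, annotation release or strand setting. The authors deposited, in 3 tables, a signal per gene and library, normalized counts, in which each library's counts are divided by its own size factor. Smallest steps gave back whole reads for 100% of values (within 0.01 read). Of the authors' interaction test, the deposited log2 values and the deposited p-values were used only where named, and the deposited score, a Wald statistic, was not used.

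Calls came from limma 3.58.1 (trend, R 4.3.3) on log2(normalized count + 1), with 4 group means over 12 libraries, genes with at least 3 libraries at 10 or more, Benjamini-Hochberg over all genes and a threshold of 0.05. Differences with vehicle came from the GW3965 fit. This scale understates changes of low genes. edgeR 4.0.16 and DESeq2 1.42.0 on the recovered reads (which called the member counts given beside each 0, and 4401 and 4704 genes with KLA in LXR-positive cells, against 4566 in limma), a pseudocount of 8, no filter, quantile normalization, thinned reads, fewer or more libraries and a replicate block were alternatives. The script was tested on simulated data.

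The series' design text gives 6 mice with 4 treatments each, and within a genotype a shared replicate number was taken to mark 1 mouse. Over 36 such pairs of libraries, the deviations from the group's mean had a median r of 0.139 (-0.009 to 0.341), 28 above 0.1. Across genotypes, where a number marks different mice, the median was 0.038 over 48 pairs (-0.156 to 0.251). Of these, 11 lay above 0.1, all of them pairs of replicate 3. Whether libraries of replicate 3 shared a source other than the mouse was not tested. No 2 libraries were identical. The antisense gene Tnfsf13os, 1 symbol match of another biotype, is no member. Exon lengths and overlaps came from GENCODE M21 (GRCm38), in which 9 members have another start or end than in the deposited tables.

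The members, lists and tests were chosen with earlier results of these data known. Named were members called in at least 1 of 13 contrasts, the founding members Tnf, Lta, Ltb, Tnfrsf1a, Tnfrsf1b, Cd40, Fas and Ltbr, and up to 3 pathway genes per list by size of the called KLA change in LXR-positive cells. Others named were picked after their values were seen. The level of 1 marker gene is not reported here.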

Additional observations from a re-analysis of the deposited data

How the results depend on the processing

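Of 34 calls of single members, 27 were kept throughout, 7 were lost in at least 1 setting and 0 reversed, over 506 values from 9 alternatives and from leaving out single libraries, and 14 further comparisons of a member were called in an alternative only. Leaving out 1 library gave 12 to 14 members called with KLA in DKO cells and 12 to 17 in LXR-positive cells, 1 to 3 between genotypes with KLA, 1 to 5 with GW3965 and 1 to 1 with AcLDL. The genotype count with GW3965 (2 as reported) was 1 with edgeR, no filter, quantile normalization, thinned reads or only the 6 libraries compared, 4 with all 24 libraries in 1 fit, and 4 (3 higher, 1 lower) with the replicate number as a block. In DESeq2 it was 3, all higher. With KLA (2 as reported) the count was 1 with thinned reads and 3 (2 higher, 1 lower) in DESeq2. The fit of all 24 libraries, like DESeq2, also called Tnfrsf1a with KLA. With vehicle the count was 1 in DESeq2, and with AcLDL 3 in DESeq2 and 2 with thinned reads. In LXR-positive cells with AcLDL the count was 1 in DESeq2 and 1 with the replicate block, where the block is the mouse; the block moved no other count of members by over 1.5 times. The cause of these moves was not tested. With 1 read worth up to 2.03 normalized counts, values of members near 10 counts, such as Tnfrsf9, Tnfrsf4 and Tnfrsf13c, rested on few reads.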

Other observations

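Many members lie next to each other in the genome. With gaps of at most 200 kb between neighbours, 23 of the 43 fall into 9 clusters (GRCm38), and neighbours did not always move alike with KLA. On chromosome 4, Tnfrsf1b and Tnfrsf8, within 101.7 kb, rose in both genotypes, though Tnfrsf8 entered the test through its KLA libraries alone. On chromosome 11, Tnfsf12, Tnfsf13 and Tnfsfm13, within 13.5 kb and sharing exons, fell in LXR-positive cells. On chromosome 17, Tnf rose while its flanking genes Lta and Ltb, within 10.9 kb, were not detected, and elsewhere on the chromosome Tnfsf9 rose in both genotypes while Tnfsf14, within the same 88.8 kb, fell in LXR-positive cells and Cd70 between them was not detected. Tnfsf14 had entered the test through its vehicle libraries alone, and its call ended in 6 of 15 alternatives. The calls of Tnfrsf8 and Tnfsf14 are therefore a description. On chromosome 6, Cd27, Ltbr and Tnfrsf1a lie within 129.9 kb, and of these Ltbr alone was called, in DKO cells.

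Tnfsf10 had log2 fold changes of opposite sign with KLA in the 2 genotypes. It had 246, 192 and 140.2 normalized counts in DKO KLA libraries, against 67.2, 76.0 and 159.6 with vehicle (1.00 ± 0.45, limma adjusted p = 0.13), and 63.9, 234 and 106 in LXR-positive KLA libraries, against 237, 125 and 210.2 with vehicle (-0.65 ± 0.45, adjusted p = 0.31). KLA and vehicle values overlapped in each genotype, and the difference in response of 1.65 ± 0.64 did not pass (limma unadjusted p = 0.024, adjusted p = 0.86). Tnfrsf11b, which encodes osteoprotegerin, the secreted decoy receptor of RANK ligand, had 16.6, 19.2 and 3.80 normalized counts in DKO GW3965 libraries, against 10.2, 0 and 2.95 in LXR-positive GW3965 libraries, a difference of 1.76 ± 1.12 that did not pass (limma adjusted p = 0.34).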
